A study of Mus musculus with 8 samples.

Results

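The mitochondrial ribosomal protein genes comprise every gene in the count tables whose symbol is Mrpl or Mrps followed by a number and at most one letter a, b or c. This rule gave 77 genes of the 24421 in the tables, 48 of the large subunit (Mrpl) and 29 of the small subunit (Mrps), and it used no measured value. Total RNA was read in 8 libraries of mouse embryonic stem cells that are hybrids of CAST/Ei and 129/Sv/Jae, in 4 groups of 2, 6A cells at day 14, WT cells at day 14, 6A cells at day 0 and WT cells at day 0. 6A cells carry the HNRNPK 6A mutation in a protein of the hnRNP family that binds RNA, and the sources used here do not give the residues it replaces. All cells share the hybrid background. Day 0 cells were grown undifferentiated on irradiated embryonic fibroblasts (feeders), which are described as taken out before harvest. Day 14 cells had LIF withdrawn, grew for 4 days in suspension as embryoid bodies and for the rest of the time on plates, from day 5 until harvest. The series' design text names day 7 for these cells, whereas titles and protocol give day 14. Whether libraries of the same group stem from separate cultures or clones is not in the labels, so p-values measure only the spread between these samples.

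The mitochondrial ribosome makes the few proteins that the mitochondrial genome encodes, all of them components of the respiratory chain and ATP synthase. Its ribosomal RNAs are transcribed inside the organelle, while its proteins are encoded in the nucleus, made in the cytosol and imported. Some have bacterial homologs, and others are found only in mitochondria. Pluripotent stem cells rely strongly on glycolysis, and their mitochondria are known to change in shape and activity on differentiation. Symbols do not always give the subunit: in the human mitoribosome the products of MRPS18A and MRPS30 sit in the large subunit, and that of MRPS36 is a component of the alpha-ketoglutarate dehydrogenase complex.

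Libraries held between 8146684 and 15540163 counts, and the members had 0.215% to 0.444% of them. All 77 members were high enough to be tested among 15458 genes. A member had between 9 and 2384 counts in a library. Hnrnpk, the mutated gene, was lower in 6A cells, with 348 and 385 CPM (counts scaled to library size) in 6A against 495 and 474 CPM in WT at day 14, and 527 and 538 CPM in 6A against 880 and 709 CPM in WT at day 0. The 8 pluripotency markers summed to 569 to 599 CPM in 6A and 400.4 to 437 CPM in WT at day 14, and to 4196 to 4533 CPM over the 4 day 0 libraries, with no marker at 0 in any group. Transcripts of 6 Y-linked genes summed to 40.9 and 45.2 CPM in 6A and 26.6 and 26.1 CPM in WT at day 0, and to at most 0.101 CPM at day 14, when 5 of them in 6A and all 6 in WT were at 0. These genes were listed as absent from a line with no Y and present in male feeders. Whether RNA of feeders remained in the day 0 libraries was not tested.

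The mRNAs of the mitochondrial ribosome were lower at day 14 than at day 0 in both genotypes and in both subunits, with a median level of 0.532 times that of day 0 in 6A and 0.477 times in WT. In 6A cells 68 of 77 members fell and none rose. In WT cells 66 fell, and 1, Mrpl14, rose. These calls are edgeR quasi-likelihood tests at a Benjamini-Hochberg adjusted p under 0.05 over all 15458 genes, of which 36.6% were called lower in 6A and 36.8% in WT, with 35.4% and 38.4% called higher. The median log2 fold change of the members was -0.91 in 6A and -1.07 in WT, against medians of -0.03 and 0.04 over all genes. In these bulk cultures, fewer cells that express a gene and less of its RNA per cell cannot be told apart. Summed cell type markers changed as well: 8 visceral endoderm markers summed to 418 to 643 CPM at day 14 against 10.7 to 13.6 CPM at day 0, 8 cardiac markers to 268 to 1675 against 52.8 to 64.5 CPM, and 8 fibroblast markers to 9202 to 14120 against 1325 to 2028 CPM. Of the fibroblast markers, 7 were called higher and 1 lower in each genotype. The sum of 10 neural markers went the other way, with 105 to 306 CPM at day 14 against 428 to 502 CPM at day 0. The single neural markers were mixed: 3 were called higher and 6 lower in 6A, and 6 higher and 2 lower in WT. Afp was at 0 in 6A day 0 cells and Dcx, a neural marker, in WT day 0 cells, and no cardiac or fibroblast marker was at 0 in any group. The part of these changes in the fall was not tested. The 2 day 14 libraries lay below both day 0 libraries for 70 members in each genotype, against 44.3% of all genes in 6A and 41.7% in WT, and above them for 3 members in 6A and 2 in WT, against 42.6% and 44.5%.

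**Figure D1:**
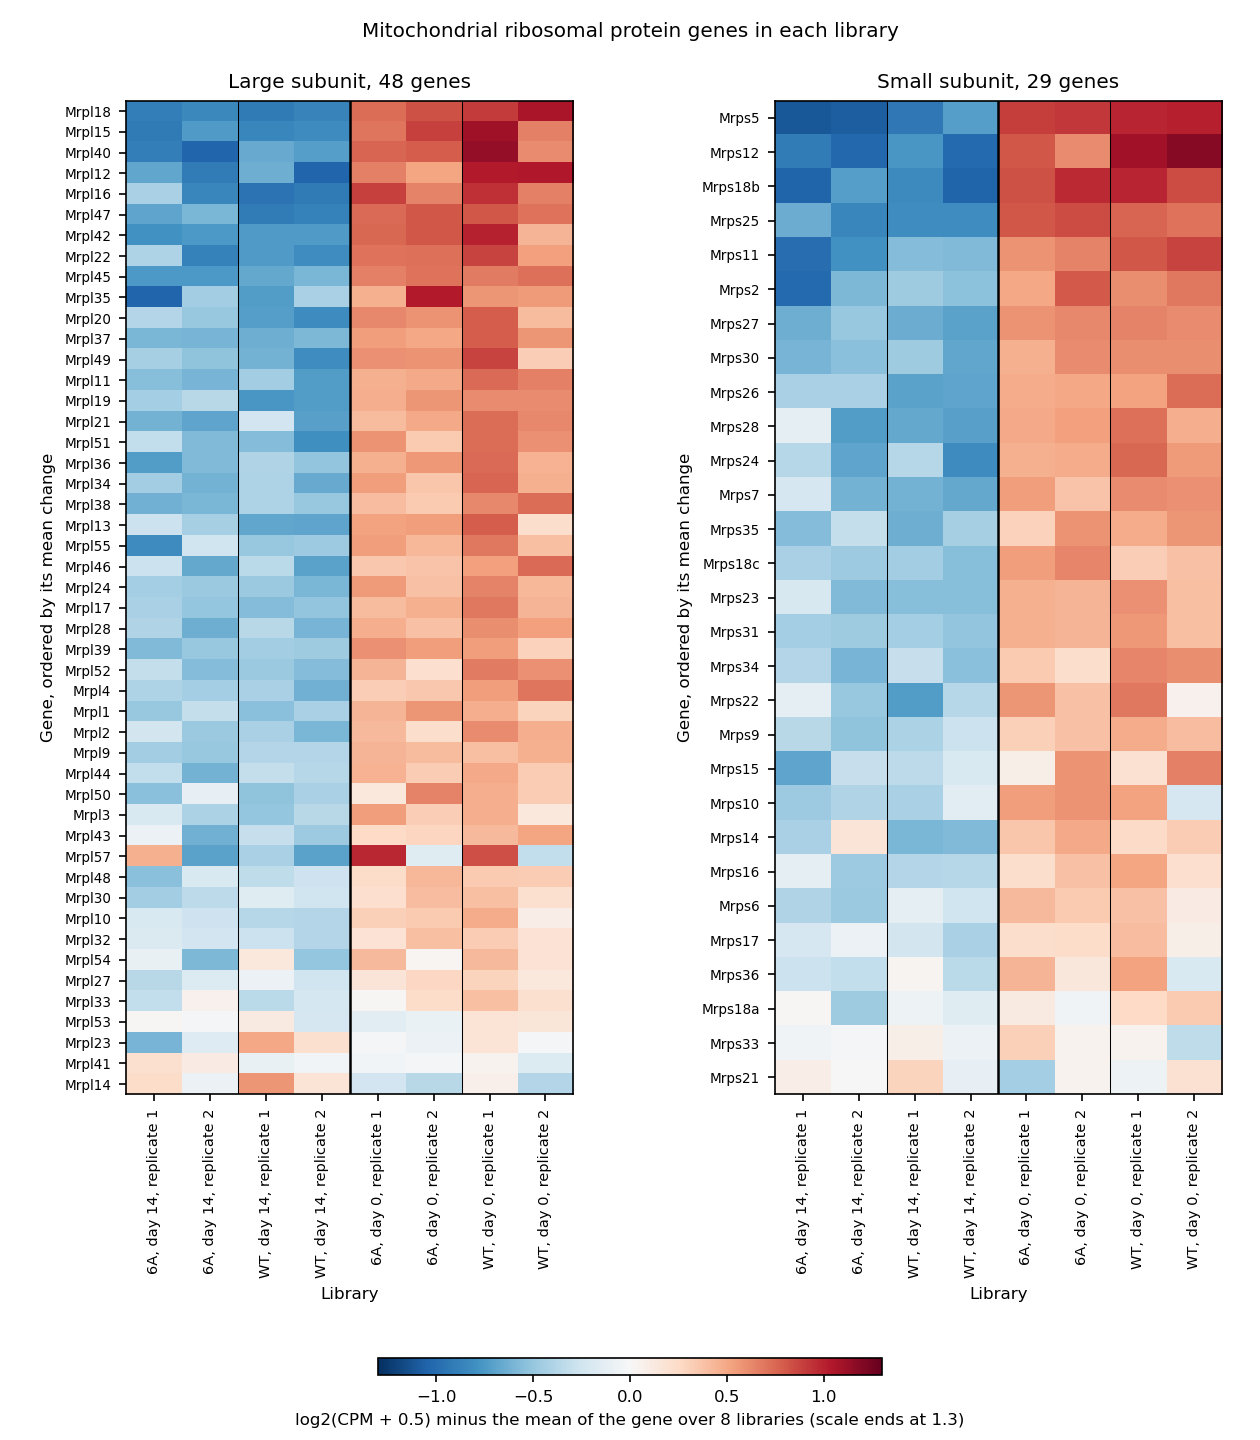
Each row is a gene and each column a library; colour gives log2(CPM + 0.5) minus the mean of that gene over the 8 libraries, for 48 large subunit and 29 small subunit genes ordered by their mean change. Blue day 14 libraries stand left of the thick line and red day 0 libraries right of it in nearly all rows, with Mrpl14, Mrpl41, Mrpl23, Mrps21 and Mrps33 at the bottom as exceptions.

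A total of 64 members fell in both genotypes, and 26 of them fell by more than 1 on the log2 scale in both. Across the 77 members the 2 changes followed each other, with a Pearson r of 0.87 and a Spearman rho of 0.84, given as a description since members share libraries. The log2 change in 6A minus that in WT was above 0 for 50 members and below 0 for 27, members that did not fall included. That asymmetry is not a called difference: the genotype by day interaction, the test of the difference itself, called 0 of 77 members in edgeR and in DESeq2, against 4.74% of all genes in edgeR, and 4 members (5.19%) had an unadjusted p under 0.05, against 18.8% of all genes. The median interaction was 0.15 on the log2 scale, against -0.01 over all genes, and it was 0.02 without WT day 0 replicate 1, the library with the highest level of members.

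**Figure D2:**
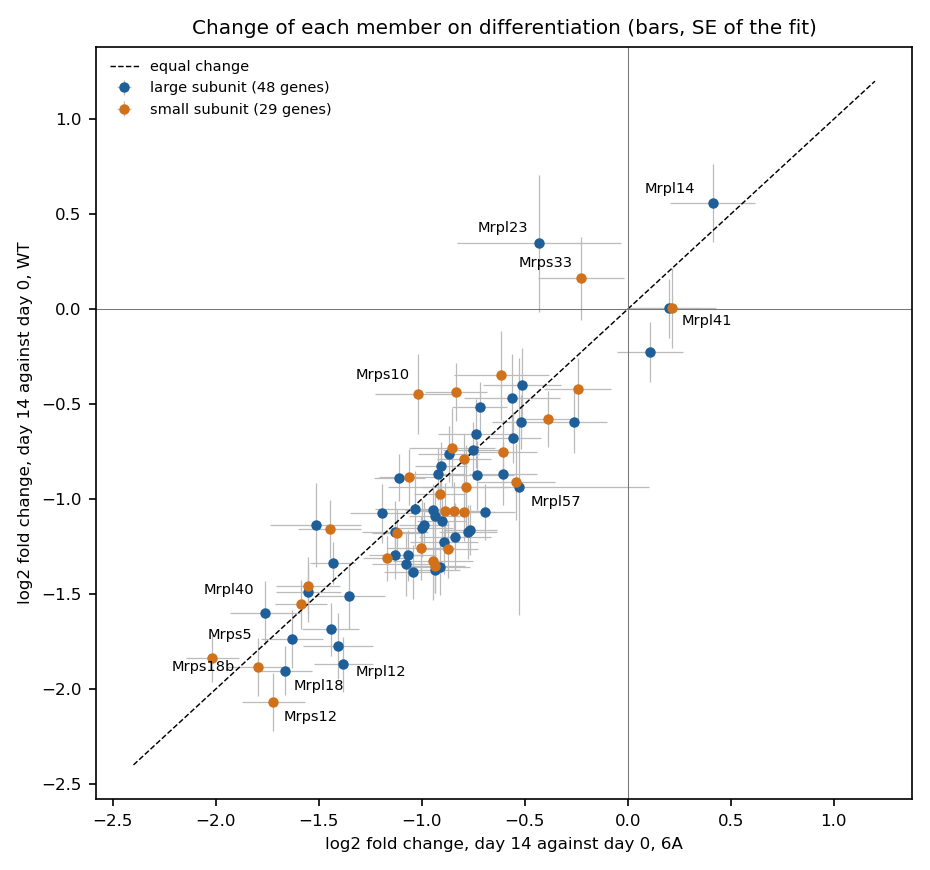
Log2 fold change at day 14 against day 0 in 6A (horizontal) and in WT (vertical) for 77 members, with bars of 1 SE from the edgeR fit and the dashed line at equal change. Nearly all points lie in the lower left area along the dashed line (r = 0.87), and large and small subunit genes occupy the same range.

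The members that fell most came from both subunits. In mm10, with the GENCODE annotation of that build, Mrps12 is at chr7:28739641-28741820 (minus strand), Mrps5 at chr2:127587222-127606829 (plus strand), Mrpl18 at chr17:12911349-12916345 (minus strand), Mrps18b at chr17:35910379-35916389 (minus strand), Mrpl12 at chr11:120484613-120489065 (plus strand) and Mrpl14, an exception to the fall, at chr17:45686322-45698495 (plus strand). Mrps12, the homolog of bacterial S12, which lines the site where the codon is read, had 12.1 and 11.1 CPM at day 14 against 40.9 and 35.6 CPM at day 0 in 6A cells. In WT cells it had 13.4 and 11.2 CPM at day 14 against 49.98 and 52.96 CPM at day 0. All 4 day 14 libraries lay far below all 4 day 0 libraries, with a log2 fold change of -1.72 ± 0.15 in 6A (adjusted p = 2.29e-07) and -2.07 ± 0.15 in WT (adjusted p = 2.89e-08, edgeR, SE). Mrps5, the homolog of a bacterial small subunit protein known for a role in translational accuracy, had 23.1 and 23.6 CPM at day 14 against 94.1 and 95.3 CPM at day 0 in 6A. In WT it had 26.1 and 30.3 CPM at day 14 against 100.4 and 101.5 CPM at day 0. This was the largest fall among members in 6A, at -2.02 ± 0.13, and the change in WT was -1.84 ± 0.13.

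In the large subunit, Mrpl18 belongs to the central protuberance of the ribosome. It had 25.1 and 26.2 CPM at day 14 against 78.2 and 84.1 CPM at day 0 in 6A, and 24.7 and 25.6 CPM against 89.0 and 99.4 CPM in WT. Its fold changes were -1.66 ± 0.13 in 6A and -1.90 ± 0.13 in WT on the log2 scale, and the groups did not overlap. Mrpl12, the homolog of the bacterial stalk protein that recruits translation factors, had 50.9 and 43.0 CPM at day 14 against 128.3 and 116.5 CPM at day 0 in 6A. In WT it had 52.4 and 39.6 CPM at day 14 against 166.8 and 168.3 CPM at day 0, the highest values of any library. Its change was -1.38 ± 0.14 in 6A and -1.87 ± 0.15 in WT, and the interaction had an adjusted p of 0.204. Mrpl15 and Mrpl16, which also have bacterial homologs, fell by 1.63 and 1.41 on the log2 scale in 6A and by 1.74 and 1.77 in WT. Mrpl40, a mitochondrion-specific protein of the central protuberance, fell by 1.76 in 6A and by 1.60 in WT, and Mrpl47, the homolog of a protein at the exit tunnel, fell by 1.44 and by 1.68. In the small subunit, Mrps25, a mitochondrion-specific protein, fell by 1.59 in 6A and by 1.55 in WT, and Mrps11, a protein of the platform of the subunit, fell by 1.55 and by 1.46.

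The 3 homologs of bacterial S18 had different point estimates of the fall. Mrps18b had 18.1 and 22.9 CPM at day 14 against 67.9 and 74.5 CPM at day 0 in 6A, and 21.1 and 18.1 CPM against 76.0 and 68.5 CPM in WT. Mrps18c had 13.9 and 13.4 CPM at day 14 against 27.6 and 29.5 CPM at day 0 in 6A, and 13.6 and 12.7 CPM against 23.6 and 24.6 CPM in WT. Mrps18a had 30.03 and 21.3 CPM at day 14 against 32.1 and 28.7 CPM at day 0 in 6A, and 28.2 and 26.6 CPM against 35.4 and 37.6 CPM in WT. Mrps18b thus fell by 1.80 (6A) and 1.89 (WT) on the log2 scale, Mrps18c by 1.06 and 0.88, and Mrps18a by 0.42 in WT (adjusted p = 0.0301), with -0.24 in 6A not called (adjusted p = 0.192). Differences between paralogs were not tested.

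A few members stood apart from the general fall. Mrpl14, whose product lies at the interface of the subunits, had 18.2 and 14.6 CPM at day 14 against 12.8 and 11.9 CPM at day 0 in 6A. In WT it had 23.2 and 17.5 CPM at day 14 against 16.2 and 11.7 CPM at day 0. It was called higher in WT (0.56 ± 0.20, adjusted p = 0.0232) and not in 6A (0.41 ± 0.20, adjusted p = 0.0847), and the WT call was lost without WT day 14 replicate 1 (adjusted p = 0.167) or WT day 0 replicate 2 (adjusted p = 0.228). Mrpl41 had 21.1 and 19.6 CPM at day 14 against 17.6 and 17.8 CPM at day 0 in 6A, and 16.9 and 17.6 CPM against 18.8 and 16.0 CPM in WT. Mrps21 had 13.2 and 12.4 CPM against 9.06 and 12.9 CPM in 6A, and 15.3 and 11.6 CPM against 11.9 and 14.4 CPM in WT. Neither was called in either genotype, with changes of 0.20 and 0.00 for Mrpl41 and of 0.22 and 0.01 for Mrps21 in 6A and WT. Mrpl53, Mrps33, Mrpl23 and Mrpl57 were also called in neither, so 6 members in all. Mrpl33 and Mrps18a were called lower in WT and not in 6A, and Mrpl27, Mrpl54, Mrps10 and Mrps36 in 6A and not in WT, without a called interaction for any of them.

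The values of Mrpl57 and Mrpl23 were uncertain for different measured reasons. Mrpl57 had 16.5 and 7.14 CPM in 6A and 8.69 and 7.12 CPM in WT at day 14, against 23.9 and 10.6 CPM in 6A and 21.6 and 9.39 CPM in WT at day 0. Replicate 1 was higher than replicate 2 in every group. The change of Mrpl57 was -0.53 in 6A and -0.93 in WT, with an SE of 0.63 and 0.68, so a fall was estimated but not called. Mrpl23, whose bacterial homolog sits at the exit tunnel, had 9 to 24 counts per library, the fewest of all members. It had 0.869 and 1.35 CPM in 6A and 2.43 and 1.90 CPM in WT at day 14, against 1.54 and 1.47 CPM in 6A and 1.85 and 1.55 CPM in WT at day 0.

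Promoter sequences are given for 4 members with large falls, for Mrps11, which shares its start region with Mrpl46, and for Mrpl14, which rose in WT. Each is a window of 300 bases, 250 before and 50 after the start, 5′ to 3′ on the strand of the gene, from RefSeq on GRCm38.p6. Capitals mark matches, on either strand, to CGGAAG (the core bound by ETS factors such as GABP), CCGGAAGT (its extended form, which contains the core), CGCNTGCGC (NRF1) and AGATGGCGG (YY1). The windows are Mrps12 at chr7:28741772-28742071, minus strand, Mrpl18 at chr17:12916042-12916341, minus strand, Mrps18b at chr17:35916391-35916690, minus strand, Mrpl12 at chr11:120484387-120484686, plus strand, Mrps11 at chr7:78782881-78783180, plus strand, and Mrpl14 at chr17:45686099-45686398, plus strand.
Mrps12: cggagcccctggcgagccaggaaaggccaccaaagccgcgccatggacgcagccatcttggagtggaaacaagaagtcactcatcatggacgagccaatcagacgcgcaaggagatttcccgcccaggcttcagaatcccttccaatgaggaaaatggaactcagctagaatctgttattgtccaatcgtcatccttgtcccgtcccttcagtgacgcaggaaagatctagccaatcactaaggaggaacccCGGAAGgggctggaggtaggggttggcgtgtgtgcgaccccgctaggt
Mrpl18: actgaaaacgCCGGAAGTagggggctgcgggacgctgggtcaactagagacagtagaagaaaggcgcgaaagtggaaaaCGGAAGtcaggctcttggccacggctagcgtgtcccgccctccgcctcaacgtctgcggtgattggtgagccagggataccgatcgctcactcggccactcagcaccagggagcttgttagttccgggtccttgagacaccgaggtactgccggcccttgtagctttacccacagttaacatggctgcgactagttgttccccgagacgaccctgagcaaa
Mrps18b: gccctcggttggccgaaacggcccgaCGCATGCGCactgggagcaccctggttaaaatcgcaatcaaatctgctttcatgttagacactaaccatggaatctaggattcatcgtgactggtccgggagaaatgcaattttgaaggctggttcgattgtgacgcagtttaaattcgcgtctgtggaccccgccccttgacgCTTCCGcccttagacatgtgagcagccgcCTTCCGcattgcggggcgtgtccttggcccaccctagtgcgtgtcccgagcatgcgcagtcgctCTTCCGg
Mrpl12: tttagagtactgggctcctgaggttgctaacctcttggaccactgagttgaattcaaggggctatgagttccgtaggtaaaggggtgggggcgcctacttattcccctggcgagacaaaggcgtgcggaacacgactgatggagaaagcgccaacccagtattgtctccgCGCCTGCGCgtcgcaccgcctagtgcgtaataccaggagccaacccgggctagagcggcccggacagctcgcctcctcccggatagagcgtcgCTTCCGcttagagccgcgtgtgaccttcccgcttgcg
Mrps11: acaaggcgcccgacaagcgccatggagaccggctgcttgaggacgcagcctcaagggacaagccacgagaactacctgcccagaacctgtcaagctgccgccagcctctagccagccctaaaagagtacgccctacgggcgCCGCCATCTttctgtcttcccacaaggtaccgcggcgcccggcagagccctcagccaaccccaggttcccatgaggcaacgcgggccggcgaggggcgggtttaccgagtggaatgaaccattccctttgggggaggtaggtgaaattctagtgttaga
Mrpl14: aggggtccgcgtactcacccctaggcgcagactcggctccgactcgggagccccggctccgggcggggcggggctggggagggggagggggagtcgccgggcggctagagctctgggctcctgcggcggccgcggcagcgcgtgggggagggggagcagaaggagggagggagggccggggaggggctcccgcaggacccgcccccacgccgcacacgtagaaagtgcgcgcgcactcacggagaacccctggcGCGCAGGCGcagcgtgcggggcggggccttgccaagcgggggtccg
Mrps12 has 1 ETS core, Mrpl18 has 2, of which 1 is extended, and Mrps18b has an NRF1 match and 3 ETS cores, all of these cores on the opposite strand. Mrpl12 has an NRF1 match and an ETS core on the opposite strand, Mrps11 a YY1 match on the opposite strand, and Mrpl14 an NRF1 match on the opposite strand. The window of Mrps5, the member with the largest fall in 6A, is not printed and has no match to any of these letters.

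These factors are known activators of nuclear genes for mitochondrial proteins. Windows were matched for 68 of 77 members, 74 windows in all, and were set beside the 32851 windows of all genes. The ETS core was in 52.7% of the member windows and in 16.9% of all windows, and the extended form in 16.2% and 3.89%. The NRF1 letters were in 21.6% of member windows and 6.25% of all, and the YY1 letters in 6.76% and 1.07%. For the E-box CACGTG, bound by MYC family proteins, the shares were 9.46% and 7.15%, and for TATAAA 6.76% and 13.6%. The 7 member windows with the E-box came from 5 of the 68 genes, since Mrpl2 has overlapping windows that were each counted. Member windows were also richer in G and C (median 58.5% against 52.7%) and in CG dinucleotides (median 21.5 against 7 per window), so shares of GC-rich motifs are not matched for composition. The windows of all genes were also not limited to the genes tested here, whereas all members were tested. A match is a description of letters and not a bound site. Within the members, those with an ETS core changed by a median of -0.91 in 6A and -0.95 in WT (38 genes), and those without it by -0.98 in 6A and -1.08 in WT (30 genes). Members with the NRF1 letters changed by a median of -0.89 in 6A and -0.86 in WT (16 genes), and the other 52 by -0.93 in 6A and -1.07 in WT. The median fall was smaller with either of these motifs than without it. It was larger with the YY1 letters, at -1.17 in 6A and -1.297 in WT (5 genes), against -0.91 in 6A and -1.05 in WT for the other 63. With the E-box it was -1.06 in 6A and -1.08 in WT (5 genes), against the same medians of -0.91 and -1.05 for its other 63. None of these differences was tested.

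Many members start next to another gene on the opposite strand. Of the 77, 33 (42.9%) had a protein-coding neighbour in head-to-head orientation with starts within 1000 bases, against 14.4% of 14551 tested protein-coding genes. One such pair holds members of both subunits: Mrpl46 and Mrps11 overlap at their starts on chromosome 7. Of the other 31 neighbours, 29 were tested. In 6A 18 (62.1%) were called lower and 5 (17.2%) higher at day 14, against 36.6% and 35.4% of all genes. In WT 19 (65.5%) neighbours were called lower and 4 (13.8%) higher, against 36.8% and 38.4% of all genes. Their median change was -0.68 in 6A and -0.81 in WT, and across the 29 pairs the changes of neighbour and member correlated weakly (r = 0.31 in both genotypes, a description). Mrps12 starts 172 bases from Sars2, which encodes the mitochondrial seryl-tRNA synthetase. Sars2 had 12.6 and 10.5 CPM at day 14 against 24.3 and 22.2 CPM at day 0 in 6A, and 15.7 and 12.1 CPM against 41.2 and 41.7 CPM in WT, and both genes of the pair fell in both genotypes. Mrps18b starts 45 bases from Ppp1r10, which encodes a regulator of protein phosphatase 1 and was not called in either genotype (-0.14 ± 0.11 in 6A and 0.15 ± 0.11 in WT). Mrpl14 and its neighbour Tmem63b, a membrane channel gene, both rose at day 14 in WT, and Tmem63b changed by 0.48 ± 0.15 in 6A and 0.83 ± 0.15 in WT (adjusted p = 0.00987 and 0.000172). The exons of Mrpl14 and Tmem63b overlap by 106 bases on opposite strands, and the sources used here do not give the strand setting of the counting.

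Large and small subunit genes had close medians. In 6A 42 of 48 large and 26 of 29 small subunit genes fell (36.6% of all genes called lower), with medians of -0.92 and -0.89. In WT 41 of 48 and 25 of 29 fell (36.8% of all genes called lower), with medians of -1.10 and -1.06. With Mrps18a and Mrps30 placed in the large subunit and Mrps36 left out, the medians were -0.92 and -0.90 in 6A and -1.10 and -1.06 in WT. Levels between genes were compared per length, as CPM divided by the exon length in kb. The large subunit genes summed to 733 and 678 CPM per kb in 6A at day 14 and 725 and 655 in WT at day 14, against 1373 and 1339 in 6A at day 0 and 1567 and 1380 in WT at day 0. The small subunit genes summed to 269 and 254 CPM per kb in 6A at day 14 and 270.4 and 249 in WT at day 14, against 515 and 530.2 in 6A at day 0 and 564 and 539 in WT at day 0. Day 14 sums lay below every day 0 sum for both subunits. The ratio of small to large sums was 0.367 and 0.375 in 6A and 0.373 and 0.38 in WT at day 14, and 0.375 and 0.396 in 6A and 0.36 and 0.391 in WT at day 0. The group ranges of this ratio overlapped between days and between genotypes. Without division by length they did not overlap between genotypes at day 14, with 0.446 and 0.456 in 6A against 0.4595 and 0.468 in WT, and the other pairs of groups did.

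**Figure D3:**
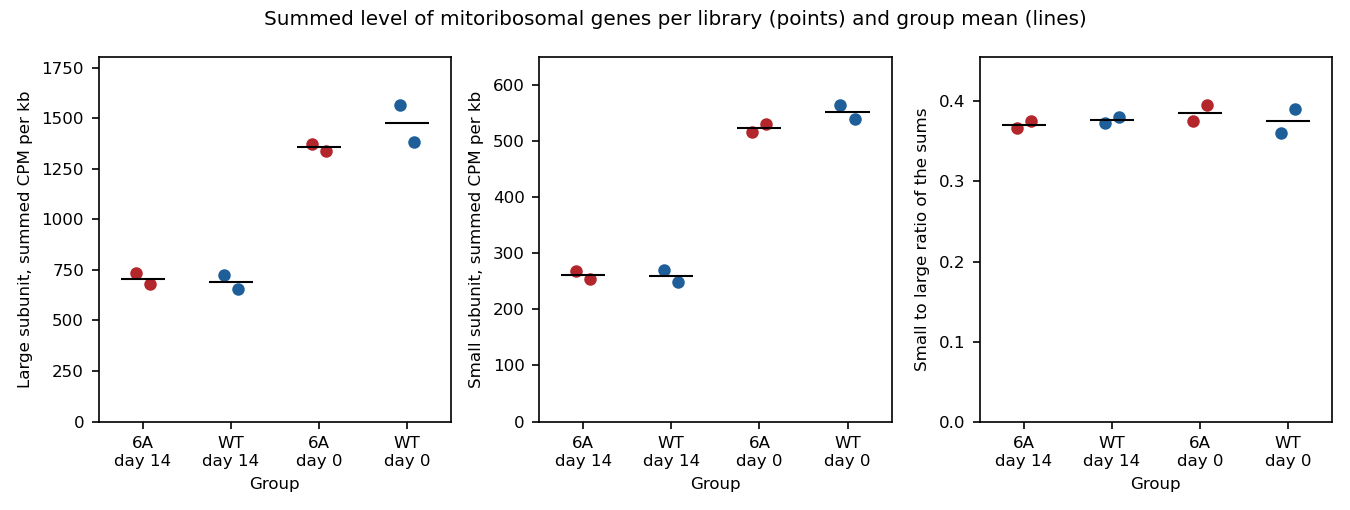
Points are the 2 libraries of each group and lines their mean, for the summed CPM per kb of 48 large subunit genes (left), of 29 small subunit genes (middle) and for the ratio of small to large sums (right); all axes start at 0. Both sums at day 14 lie below every sum at day 0, while the ratio lies between 0.36 and 0.396 in all 8 libraries.

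Levels of single members spanned a wide range, and their order was largely kept. The mean of the 4 groups had a median of 16.8 CPM per kb over the large subunit genes and 11.7 over the small subunit genes. Mrpl34 was highest, with 54.5 CPM per kb in 6A and 54.8 in WT at day 14, against 108.9 in 6A and 121.9 in WT at day 0. Mrpl12, Mrpl10, Mrpl18 and Mrpl28 followed at means of 62.5, 49.9, 40.4 and 40.2 CPM per kb. All 5 belong to the large subunit, and the order depends on the gene models: divided by the longest transcript in place of all exons, Mrpl34 stayed at rank 1, while the other 4 were at ranks 3, 6, 9 and 7. The 5 lowest were Mrpl23 (0.332), Mrpl48 (1.47), Mrps10 (3.01), Mrpl33 (3.29) and Mrpl57 (4.44 CPM per kb). The rank order was close between genotypes, with a Spearman rho of 0.984 at day 14 and 0.991 at day 0, and it was 0.909 between the days in 6A and 0.895 in WT.

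No member was called different between 6A and WT at either day by edgeR on all libraries, though Mrpl12 at day 0 was called with a replicate block and with no filter on low counts. At day 14, 0 of 77 members were called, against 13.6% of all genes tested, and the median was 0.03 on the log2 scale (0.04 for the large and 0.03 for the small subunit, 0.00 over all genes), or -0.01 without WT day 14 replicate 2. DESeq2 also called 0, and 4 members (5.19%, against 26.4% of all genes) had an unadjusted p under 0.05 in edgeR, namely Mrpl19, Mrpl20 and Mrps14 above and Mrpl23 below WT. The genotypes did not overlap for 15 members higher and 13 lower in 6A, against 28.2% and 28.5% of all genes. Mrpl19 had the smallest adjusted p, with 35.3 and 37.4 CPM in 6A against 28.3 and 29.0 CPM in WT (0.34 ± 0.13, adjusted p = 0.0918). At day 0, 0 of 77 were called, against 1.58% of all genes, by edgeR and by DESeq2, and the median was -0.07 (-0.07 for the large and -0.05 for the small subunit, 0.01 over all genes). Averaged over both days, again 0 were called by either tool, against 8.11% of all genes by edgeR, with 4 members (5.19%) at an unadjusted p under 0.05, against 23.2% of all genes.

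At day 0 the genotypes did not overlap for 25 members lower and 4 higher in 6A, against 20.8% and 24.9% of all genes. The 6 members with an unadjusted p under 0.05 were all lower in 6A: Mrpl12, Mrpl38, Mrpl4, Mrpl52, Mrps12 and Mrps34. They were 7.79% of the members, against 16.4% of all genes at such a p. Mrpl12 had 128.3 and 116.5 CPM in 6A against 166.8 and 168.3 CPM in WT, without overlap, for a log2 difference of -0.45 (95% interval -0.75 to -0.16, adjusted p = 0.119, edgeR). With the replicate number as a block it was -0.46 and called (adjusted p = 0.0436), as it was with no filter on low counts (-0.47, adjusted p = 0.0492), while the labels do not pair the libraries by number. Mrps12 had 40.9 and 35.6 CPM in 6A against 49.98 and 52.96 CPM in WT, a difference of -0.43 (-0.73 to -0.13, adjusted p = 0.133). Sars2, which starts beside Mrps12, was called lower in 6A at day 0, with 24.3 and 22.2 CPM in 6A against 41.2 and 41.7 CPM in WT (-0.84 ± 0.15, adjusted p = 0.0191), and lost the call without 6A day 0 replicate 1 or 2 or WT day 0 replicate 2 (adjusted p = 0.0738, 0.205 and 0.0515). The day 0 median rests on single libraries: it was 0.04 without WT day 0 replicate 1 and -0.17 without WT day 0 replicate 2. The Y-linked sum was also higher in 6A at day 0, as were 2 of 8 fibroblast markers, whose sum was 2028 and 1427 CPM in 6A against 1428 and 1325 CPM in WT, and their part in these values was not tested.

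The intervals show how large a difference could have been missed. At day 0 the 95% interval of the 6A difference lay within 1 on the log2 scale for 76 of 77 members, the exception being Mrpl57 (-1.38 to 1.76). At day 14 it did so for 75, the exceptions being Mrpl57 (-1.14 to 2.33) and Mrpl23 (-1.78 to -0.09). The interval of the interaction lay within 1 for 72 of 77 members. Within the narrower bound of 1.5-fold lay the intervals of 62 members at day 0, 56 at day 14 and 23 for the interaction. Single libraries could make a call: without WT day 0 replicate 1, Mrps10 was called higher in 6A at day 0 (0.80 ± 0.17, adjusted p = 0.0253) and lower in the interaction (-0.97 ± 0.22, adjusted p = 0.0256), and Mrpl13 higher in the average (0.32 ± 0.09, adjusted p = 0.0383). Mrps10 had 19.8 CPM in WT day 0 replicate 2 and 33.4 to 35.0 CPM in the other 3 day 0 libraries. Without 6A day 14 replicate 1, Mrps14 was called higher in 6A at day 14 (0.78 ± 0.21, adjusted p = 0.0345). Cell type markers also differed between the genotypes at day 14. In 6A all 8 cardiac and 8 of 10 neural markers were lower, and all 8 blood and 4 of 8 pluripotency markers higher. Of 8 visceral endoderm markers 3 were higher in 6A, and of 8 fibroblast markers 2 were higher and 1 lower. The part of these differences in the values above was not tested. Cardiac markers summed to 268 to 286 CPM in 6A against 1475 to 1675 CPM in WT, neural markers to 105 to 125 against 295 to 306 CPM, and blood markers to 157 to 163 against 39.1 to 39.6 CPM, with no marker of these lists at 0 at day 14.

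**Figure D4:**
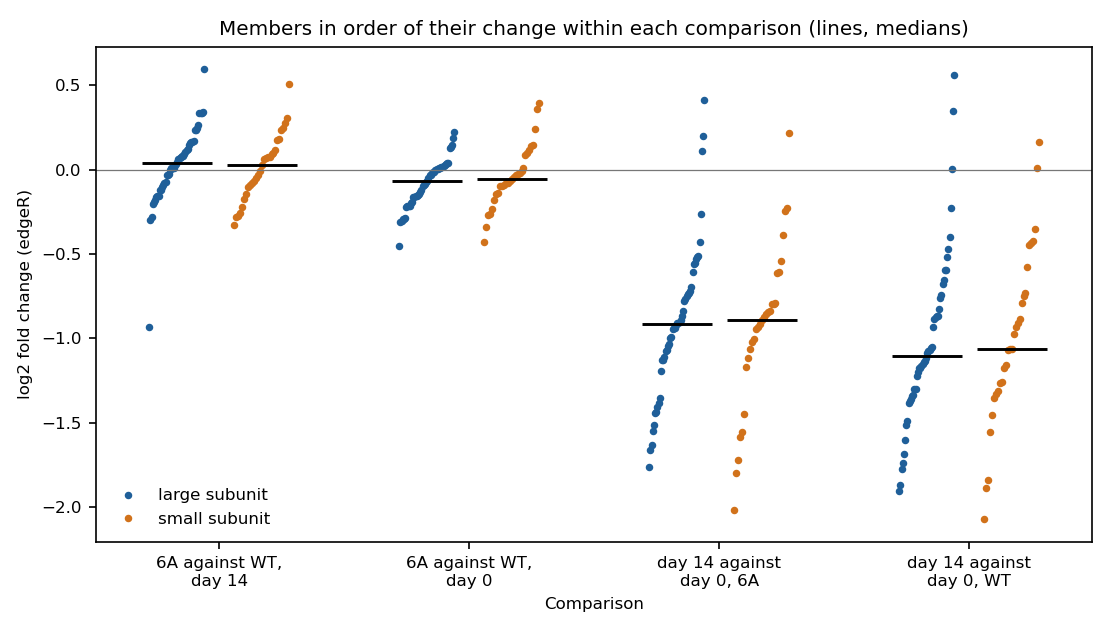
Each point is a member, placed in order of its log2 fold change within a comparison, for large (blue) and small (orange) subunit genes, with lines at the medians. The genotype comparisons centre on 0 (medians from -0.07 to 0.04), and both day comparisons centre near -1 (medians from -1.10 to -0.89) for both subunits.

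The other mitoribosomal proteins, which lack an Mrp symbol, moved with the members. Of 6 such genes, 5 fell in 6A and 5 in WT (36.6% and 36.8% of all genes called lower), with medians of -0.86 and -1.08. Ptcd3, an RNA-binding protein of the small subunit, had 129.1 and 139.1 CPM at day 14 against 353 and 373 CPM at day 0 in 6A, and 86.6 and 96.95 CPM against 340 and 297 CPM in WT. It fell by 1.44 in 6A and by 1.79 in WT, and at day 14 it was higher in 6A (0.55 ± 0.12, adjusted p = 0.0069), a call lost without 6A day 14 replicate 2 (adjusted p = 0.0689) or WT day 14 replicate 1 (adjusted p = 0.0882). Gadd45gip1, a large subunit protein also known as CRIF1, fell by 1.19 in 6A and by 1.61 in WT. Dap3, a GTP-binding protein of the small subunit, fell by 0.66 and by 0.92.

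Many genes that act on the mitoribosome fell as well. By comparison, 36.6% of all genes were called lower in 6A and 36.8% in WT, and 35.4% and 38.4% higher. Among 12 translation factors, 9 fell in 6A and 7 in WT and none rose, with medians of -0.50 and -0.56. Tsfm, the mitochondrial elongation factor Ts, fell by 1.47 in 6A and by 2.00 in WT, and Tufm, its partner Tu, by 1.41 and by 1.43. Oxa1l, which inserts the new proteins into the inner membrane, had 84.5 and 93.8 CPM in 6A against 123.3 and 112.1 CPM in WT at day 14 (-0.40 ± 0.11, adjusted p = 0.0324), a call lost in 6 of 8 fits without a library, among them those without each day 14 library (adjusted p = 0.0568 to 0.258), and in DESeq2 (adjusted p = 0.0748). Of 23 assembly and rRNA modification genes, 19 fell in 6A and none rose, and 17 fell in WT and 1 rose, with medians of -0.81 and -0.71. Noa1, a GTPase required for mitochondrial translation, fell by 1.47 in 6A and by 1.90 in WT. Of 20 genes for mitochondrial tRNA synthetases and related amidotransferase subunits, 13 fell and 2 rose in 6A, and 12 fell and 2 rose in WT. Yars2, the tyrosyl-tRNA synthetase, fell by 1.64 in 6A and by 2.18 in WT.

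Genes that supply the mitochondrial RNAs fell in both genotypes with few exceptions. Of 18 genes for mitochondrial transcription and RNA processing, 17 fell in 6A and 16 in WT and none rose, with medians of -1.11 and -1.23. The shares of all genes called lower were 36.6% in 6A and 36.8% in WT. Elac2, which cuts the 3′ ends of mitochondrial tRNAs, had 37.0 and 37.5 CPM at day 14 against 143.5 and 144.3 CPM at day 0 in 6A, and 34.9 and 34.1 CPM against 151.4 and 180.6 CPM in WT. Tfam, which packages and transcribes mitochondrial DNA, fell by 1.33 in 6A and by 1.42 in WT. Fastkd3, a mitochondrial RNA-binding protein, was higher in 6A at both days, with 16.2 and 15.9 CPM in 6A against 12.1 and 10.04 CPM in WT at day 14, and 34.8 and 34.0 CPM in 6A against 21.7 and 21.2 CPM in WT at day 0. Its differences were 0.55 ± 0.16 at day 14 (adjusted p = 0.033) and 0.68 ± 0.14 at day 0 (adjusted p = 0.0349). Without single libraries the day 14 call was lost in 6 of 8 fits (adjusted p = 0.0542 to 0.243, all 4 day 14 libraries among them) and the day 0 call in 7 of 8 (adjusted p = 0.0552 to 0.233, all but WT day 0 replicate 1), and both were lost in DESeq2 (adjusted p = 0.0672 and 0.0545), while the average over both days was called at an adjusted p of 0.00317.

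Regulators of nuclear genes for mitochondria did not move as one. Of 10, 6 fell and 2 rose in each genotype, against 36.6% of all genes called lower and 35.4% higher in 6A, and 36.8% and 38.4% in WT. Mycn, a MYC family activator of growth genes, had 93 and 86.8 CPM at day 14 against 371 and 302 CPM at day 0 in 6A, and 84.5 and 74.9 CPM against 481 and 493 CPM in WT. It fell by 1.90 in 6A and by 2.61 in WT. Myc fell by 1.46 and by 1.74, Pprc1, a coactivator, by 1.59 and by 1.80, Nrf1 by 1.09 and by 1.07, and Gabpa, the DNA-binding subunit of GABP, by 1.03 and by 0.90. Ppargc1a, the coactivator known for raising mitochondrial content in muscle and brown fat, rose: it had 2.61 and 3.96 CPM at day 14 against 0.171 and 0.534 CPM at day 0 in 6A, and 11.5 and 14.2 CPM against 0.00 and 0.424 CPM in WT. At day 14 it was lower in 6A than in WT (-1.97 ± 0.32, adjusted p = 0.00107).

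Beside related gene groups, cytosolic ribosomal protein genes changed by a median of -0.74 in 6A (67 of 79 called lower) and -0.88 in WT (73 of 79). Nuclear genes for oxidative phosphorylation, whose products work with those made on the mitoribosome, had smaller medians. Of 81 tested, 58 were called lower and 3 higher in 6A, and 57 lower and 5 higher in WT, with medians of -0.58 and -0.62. Over all genes, 36.6% were called lower and 35.4% higher in 6A, and 36.8% lower and 38.4% higher in WT. No test was made of the differences between these gene groups.

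Reads given to the CAST and 129 genomes show the fall by allele. They are a subset of the counts of all reads, so they are no independent support for it. Of the 77 members, 70 had a mean of at least 10 allele reads per library. In 26 of them, 15 of the large and 11 of the small subunit, the share of 129 reads over all libraries lay between 20 and 80%, and in the other 44 it was at least 90%, so a CAST copy could hardly be followed there. Over all 12575 genes with such reads the corresponding shares were 34.3% and 61.6%. The class was the same for every member on some chromosomes and mixed on others. All 5 members on chromosome 7 and all 5 on chromosome 13 were between 20 and 80%, and none of 7 on chromosome 17 was, where the median 129 share of all genes was 55.2%, 53.0% and 98.3%. Members between 20 and 80% and members of at least 90% were mixed on chromosome 11 (5 and 4), chromosome 2 (2 and 2), chromosome 5 (3 and 1) and chromosome 6 (1 and 6), where the median of all genes was 95.5%, 94.4%, 56.1% and 98.5%. Among the 70 members, Mrps35 and Mrpl34 had the lowest 129 shares (31.2% and 31.7%), while Mrpl47 and Mrpl53 had the highest of all members (99.9% and 99.8%).

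Both alleles fell together, which describes by allele a fall already seen in the counts of all reads. In all 26 members the depth-scaled CAST and 129 reads were both lower at day 14 in both genotypes, whereas both were lower for 44.8% of the 4308 genes with such shares in 6A and 45.8% in WT. The median log2 change of the 26 was -0.88 for CAST and -0.91 for 129 reads in 6A, and -1.12 and -1.16 in WT. Over the 4308 genes the medians were 0.01 for CAST and -0.385 for 129 reads in 6A, and -0.02 and -0.376 in WT. For Mrps12 the share of 129 reads was 55.7% and 53.8% at day 14 against 57.1% and 65.6% at day 0 in 6A, and 50.5% and 52.3% against 64.7% and 61.0% in WT, and its change of ratio was not called. For Mrpl12 it was 45.9% and 52.6% against 52.0% and 46.6% in 6A, and 49.8% and 48.9% against 52.3% and 52.0% in WT.

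**Figure D5:**
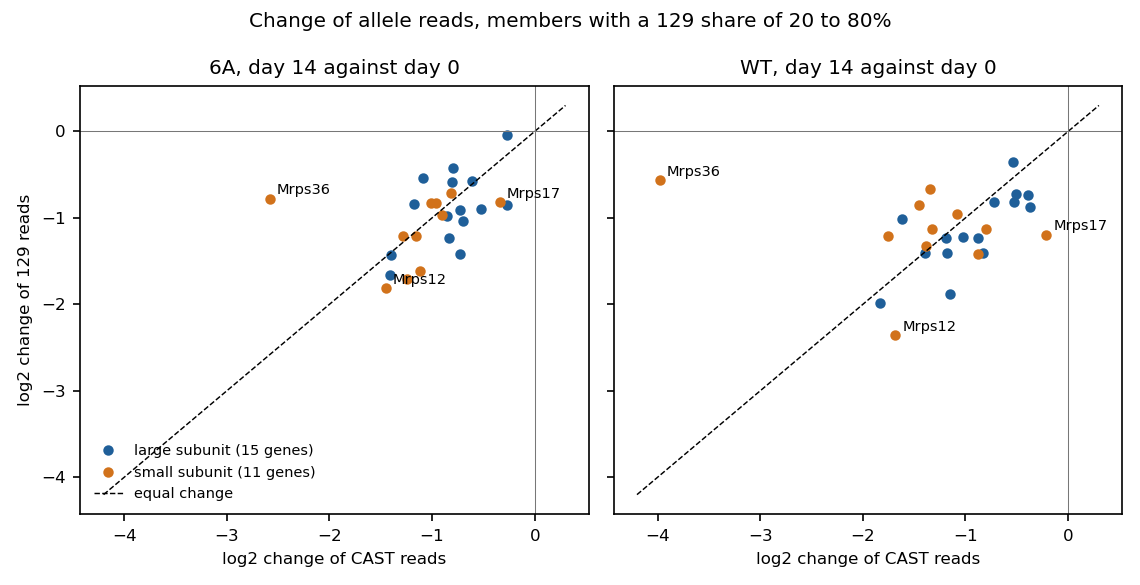
Log2 change at day 14 against day 0 of reads given to CAST (horizontal) and 129 (vertical) for the 26 members with a 129 share of 20 to 80%, in 6A (left) and WT (right). All points lie below 0 on both axes, most near the line of equal change; Mrps36, with a mean of 27.5 allele reads per library, lies far from it.

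The ratio of 129 to CAST reads changed for few members. It was called between 6A and WT for 0 of 70 members at day 14 (0.0398% of all genes called) and for 0 at day 0 (0.167%) in edgeR, the one tool run on it, with 0 and 2 members at an unadjusted p under 0.05. Between days it changed for 3 members in 6A (19.2% of all genes called) and 2 in WT (16.3%). In WT, the 129 share of Mrps17 was 59.0% and 57.7% at day 14 against 70.3% and 77.2% at day 0 (log2 change of the ratio -1.04 ± 0.31, adjusted p = 0.00596), lost without WT day 14 replicate 2 (adjusted p = 0.0623) or WT day 0 replicate 2 (adjusted p = 0.203). The other WT call, Mrps36, rested on 0 and 1 CAST reads at day 14 against 18 and 28 at day 0. The calls in 6A were of members with few CAST reads: Mrpl20 had 0 and 2 of them at day 14 against 38 and 31 at day 0, Mrps23 had 4 and 0 against 19 and 22, and Mrpl28 had 6 and 1 against 0 and 0. The Mrpl28 and Mrps23 calls were lost without 6A day 0 replicate 1 (adjusted p = 0.0824 and 0.0627) or replicate 2 (0.0635 and 0.0865), and also without 6A day 14 replicate 1 for Mrpl28 (0.366) and without 6A day 14 replicate 2 for Mrps23 (0.283).

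Some counts may be shared with other genes. The exons of 23 members overlap those of another gene in the tables, and for 6 the overlap exceeds 20% of their exon length. Mrps25 overlaps Nr2c2, a nuclear receptor gene, over 69.8% and Mrps34 overlaps Mapk8ip3, a scaffold of JNK signalling, over 63.4% of its length, both on the opposite strand. Mrps34 also overlaps Nme3 on the same strand, over 37.0% of its length. Mrpl53, one of the members that was not called, overlaps the protein-coding gene model Gm42688 on the same strand over 88.0% of its length. Mrpl23, Mrpl48 and Mrps36 have named pseudogenes in the annotation, 5 in all, to which reads could be split.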

How the data were processed

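RNA was measured in 8 libraries of mouse cells. Total RNA was depleted of ribosomal RNA and sequenced as directional 150-base paired reads, per the labels' protocols. The submitters' processing notes name cutadapt 1.4.2, STAR 2.7.10a and mm10; the sources used here do not give the counter, its strand setting, the annotation or the allele method. The authors deposited raw read counts per gene, for all reads and for reads given to CAST or 129. Counts of all reads were tested with edgeR 4.0.16 in R 4.3.3 (filterByExpr, TMM, robust quasi-likelihood, 1 coefficient per group, 4 residual degrees of freedom, common biological coefficient of variation 0.111), with Benjamini-Hochberg adjustment over 15458 genes and calls under 0.05. Each contrast uses the shared spread, since an exact permutation test of 2 against 2 libraries cannot go below 0.333. DESeq2 1.42.0 was an alternative, with other scalings, no filter, a replicate block, single contrasts and each library left out. CPM use TMM library sizes. Ratios of 129 to CAST reads were tested in edgeR in genes whose allele reads averaged 10 or more per library, with the library as a block. Scripts were tested on simulated data. Symbols were matched to a GENCODE annotation of mm10, 23222 directly and 671 as synonyms. Promoters come from RefSeq on GRCm38.p6.

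The members, the lists of related genes and the rule for named genes were chosen with earlier results of these data known. Genes were named by size of change (up to 8 a direction per contrast), by level, by allele share and, from each related list, by smallest adjusted p; the 3 Mrps18 genes, members called in neither genotype and members near a call were added, the last of these after their values were seen. Medians over members, shares of promoters and allele changes carry no test. Leaving out single libraries for the allele ratio and moving Mrps18a and Mrps30 to the large subunit were chosen after seeing the data, and the NRF1 and YY1 letters searched were shortened by 1 letter after a first search.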

Additional observations from a re-analysis of the deposited data

Results flagged for a closer look

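The fall of Mycn at day 14 differed between the genotypes in the test of the difference itself, with an interaction of 0.71 ± 0.18 on the log2 scale (edgeR adjusted p = 0.0348), and no member did. Mycn had 93 and 86.8 CPM in 6A and 84.5 and 74.9 CPM in WT at day 14, and 371 and 302 CPM in 6A and 481 and 493 CPM in WT at day 0, so the gap between genotypes lay at day 0 (-0.54 ± 0.12, adjusted p = 0.0475, a call lost in 7 of 8 fits without a library, with adjusted p = 0.071 to 0.434). The interaction was lost in 5 of the 8 fits without a library: without 6A day 14 replicate 1 (adjusted p = 0.141) or 2 (0.0698), WT day 14 replicate 1 (0.0729) or 2 (0.172), or 6A day 0 replicate 2 (0.202).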

How the results depend on the processing

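The fall at day 14 kept its direction in every alternative. Members called lower in all alternatives were 59 of 68 in 6A and 61 of 66 in WT, none of the members called lower gave a value at or above 0, and without single libraries the calls of either direction ranged from 63 to 68 in 6A and from 64 to 67 in WT. The median fall was -0.83 with RLE size factors and -0.78 with total counts in 6A, and -0.87 with total counts in WT; total counts moved the median of all genes to 0.10 in 6A and 0.24 in WT. Without single libraries the median ran from -0.98 to -0.87 in 6A and from -1.15 to -1.01 in WT. For 6A against WT at day 0, calls were 1 with no filter on low counts and 1 with the replicate block, both Mrpl12, 0 to 1 without single libraries, and the median ran from -0.1732 to 0.0402. At day 14 calls were 0 to 1 without single libraries, as in the interaction and the average. The median interaction was 0.22 with no filter on low counts and 0.0249 to 0.18 without single libraries. Replicate numbers do not pair libraries in the labels (correlations of replicate deviations 0.00814 to 0.32 over 6 pairs of groups), and the block changed no other count of member calls by over 1.5 times. The small to large ratio was 0.451, 0.464, 0.462 and 0.452 without division by length, 0.402, 0.412, 0.417 and 0.406 with the longest transcript, and 0.33, 0.332, 0.35 and 0.342 with Mrps18a and Mrps30 counted as large and Mrps36 left out (6A day 14, WT day 14, 6A day 0, WT day 0). Allele ratio calls between days were 1 at a minimum of 30 reads in WT, and without single libraries 1 to 3 in 6A and 1 to 2 in WT. The cause of these shifts was not tested. Depth limits Mrpl23, with 9 to 24 counts per library, and the allele tests of members with few allele reads.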
